A study of Mus musculus with 27 samples.

Results

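The tibialis anterior muscles of mice at day 21 after volumetric muscle loss (VML) were compared with those at day 14, across every gene expressed in the series. The comparison takes 11 of the 27 samples sequenced, 5 from day 21 and 6 from day 14, chosen by the time point in their labels and not by any measured value. All mice were male C57BL/6 animals injured at 8 weeks of age by excision of 40% of the tibialis anterior, and 5 uninjured muscles of the same strain gave the baseline. The series record describes a unilateral excision and the methods of the study a bilateral one, and the sample labels do not settle this. Whether each library came from its own mouse is not labelled either, so the p-values below measure the spread between samples.

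In VML, more muscle is removed than the tissue can replace. Inflammatory cells clear the debris of a muscle injury, satellite cells divide and fuse into new fibers that first express embryonic and perinatal myosins, and fibroblasts and fibro-adipogenic progenitors lay down collagen. In a wound that heals, the inflammatory, proliferative and matrix-producing programs recede while the fibers regain adult sarcomeres, mitochondria and nerve contacts. In VML, by contrast, a fibrotic scar fills part of the defect. Comparing day 21 with day 14 asks how these programs stand late in this sequence.

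Expression is given as FPKM, fragments per kilobase of gene, scaled for the depth of the library. A difference is the mean of log2(FPKM + 1) at day 21 minus that at day 14, so a negative value means lower expression at day 21, and its interval is the 95% confidence interval of the limma fit. The 11 libraries held 14391736 to 19930123 reads on genes. Every library had the transcripts that define skeletal muscle. Ckm, muscle creatine kinase, ranged from 921 to 2999 FPKM at day 14 and from 1606 to 3483 at day 21, Acta1, skeletal actin, was at 14028 FPKM or more throughout, and Myh4 (fast myosin) and Ttn (titin) were also abundant in all samples. Muscles contain many cell types, and in these bulk libraries fewer cells of a type and less RNA per cell cannot be told apart.

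Some libraries stood apart. Replicate 5 of day 21 and replicate 5 of day 14 had the lowest mean correlation with the rest of their own group (0.944 and 0.948 across genes), and replicate 5 of day 21 had the fewest genes above 0, 15725. Replicate 1 of day 14 had the most genes above 0, 21334, and its FPKM had been scaled to 1.33 times its own total of reads, against 0.776 to 0.964 times in the day 21 libraries. Correlations between samples of the same group were close to those between the groups. The mean was 0.957 within day 14, 0.963 within day 21 and 0.958 between them, and 5 of the 6 day 14 samples were closest to a day 21 sample.

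No gene passed the test between day 21 and day 14. Of the 14630 genes that reached 0.5 FPKM in 5 or more of the 27 samples, 0 (0.0%) reached a Benjamini-Hochberg adjusted p under 0.05 in limma, and the lowest adjusted p was 0.673. At an unadjusted p under 0.05 there were 909 genes (6.21%), where 5% would fall under that limit if no gene differed, and with voom weights on the recovered reads there were 870, with 0 called. These 909 genes divided almost evenly, into 454 higher (3.1%) and 455 lower (3.11%) at day 21. The division depends on how samples are scaled: with FPKM rescaled to the same sum in every library (TPM) it was 70 higher and 747 lower, and with each library's own read total as denominator (own totals) 116 higher and 779 lower. Those scalings also moved the median difference of all genes to -0.23 and -0.14, from -0.003. Median-ratio scaling, which aligns the typical gene between libraries, left the counts at 454 and 455 and the median at -0.003. The deposited FPKM were thus already centered in this way. Such centering puts the median near 0, so the even division is not read as a result.

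Typical differences were small compared with the uncertainty. The median absolute difference was 0.14 and the 5th and 95th percentiles of the difference were -0.40 and 0.40. The interval had a median half-width of 0.37, and for 13185 genes (90.1%) it lay within 1 unit of log2(FPKM + 1) on either side of 0. For the other 1445 genes the interval reached beyond 1 unit. A unit is a 2-fold change of FPKM + 1, so for genes of low FPKM a smaller difference can be a larger fold change of FPKM itself. By the point estimate, 62 genes differed by more than 1 unit, 26 higher and 36 lower, and of these 28 were shorter than 200 bases, 30 were predicted genes or pseudogenes and 35 had 0 reads in at least 1 sample. Against the uninjured muscles, which both time points share as controls, 2969 genes (20.3%) were called at day 14 and 502 (3.43%) at day 21, and the median absolute difference was 0.27 and 0.20.

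The gene lists described next are groups of genes with a shared role, and each is read by its counts and its median beside those of all genes tested, whose median difference was -0.003. The lists of matrix, inflammatory and cell division genes had medians below 0 and those of mitochondrial and glycolytic genes medians above 0, without any member being called.

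**Figure D1:**
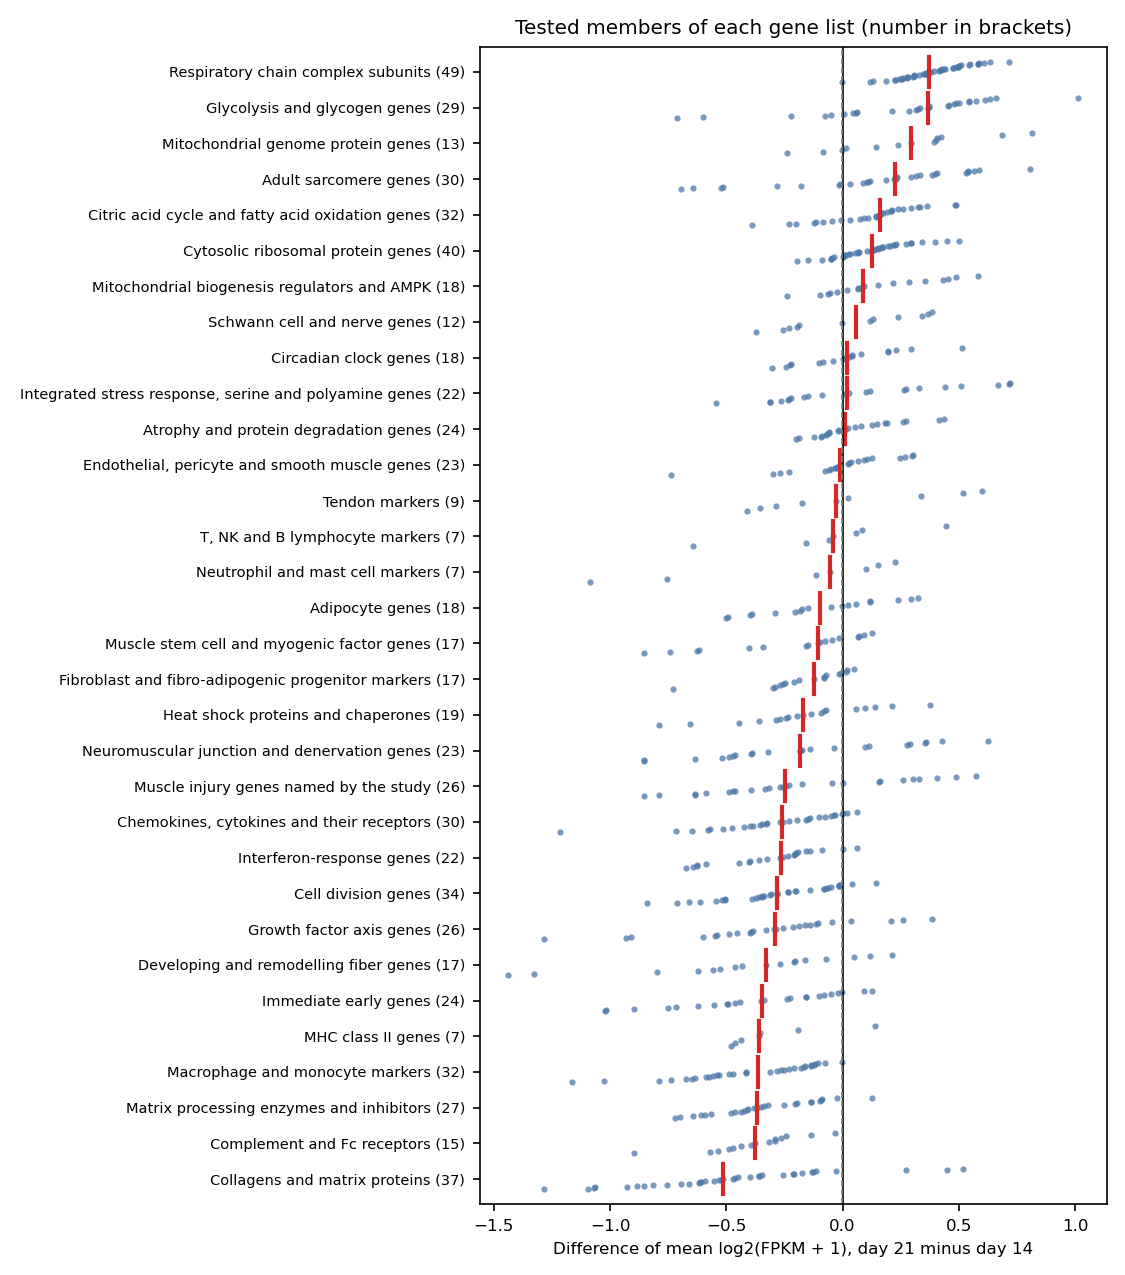
Difference of mean log2(FPKM + 1), day 21 minus day 14, on the horizontal axis for each tested member (blue point) of the gene lists, with the list median in red. Of the 34 lists, the erythroid and skin epithelial markers, with 5 and 2 tested genes, are not shown. The solid line marks 0 and the dashed line, almost at 0, the median of all genes tested. Collagens and matrix proteins have the lowest median, -0.52, and respiratory chain subunits the highest, 0.37.

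Extracellular matrix genes had the lowest list median. Of 37 collagens and other matrix proteins, 34 were lower and 3 higher at day 21, with a median of -0.52. Among them 13 had an unadjusted p under 0.05, all lower, where 3.11% of all genes tested did so. That number was 9 with both replicate 5 libraries left out and ranged from 9 to 18 as single libraries were left out, while the median ranged from -0.60 to -0.41. With TPM it was 17, but with TPM 747 of all genes tested were lower at that limit, against 455 in the fit reported. Against the uninjured muscles the same 37 genes had a median of 1.18 at day 14, with 24 called higher, and of 0.68 at day 21, with 6 called higher, where 9.02% and 1.74% of all genes were called higher.

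Fn1 (ENSMUSG00000026193, chromosome 1, 71585520 to 71653200, GRCm38), which encodes the adhesive matrix glycoprotein fibronectin, had the smallest p of the list. Its FPKM at day 14 was 17.6, 25.7, 7.46, 15.9, 13.8 and 6.76 in replicates 1 to 6, and at day 21 it was 5.05, 7.12, 9.11, 4.62 and 7.28. Replicates 3 and 6 of day 14 lay within the day 21 range and the other 4 above it. The difference was -0.93 (interval -1.5 to -0.35, adjusted p = 0.757), and all 11 injured samples were above the highest uninjured value of 4.57.

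The same pair of day 14 libraries was low for the fibrillar collagens. Col1a1 (ENSMUSG00000001506, chromosome 11, 94936224 to 94953042), the main chain of type I collagen, stood at 186, 260, 65.7, 173, 139 and 61.9 FPKM at day 14 and at 60.5, 66.6, 80.6, 39.4 and 68.5 at day 21. Replicates 3 and 6 of day 14 again fell inside the day 21 range, and the uninjured muscles were lower than all of these, at 12.7 to 36.8. The difference was -1.07 (interval -1.83 to -0.30, adjusted p = 0.757), and an exact two-sided permutation test over all divisions of the samples gave p = 0.0519. Col5a2, a type V collagen chain, had medians of 11.7 FPKM at day 14 and 4.64 at day 21 and a difference of -0.89. Col3a1 (type III collagen, chosen after its values were seen) had -1.07, and Postn (periostin, a matricellular protein of healing wounds) -1.28. The mean log2(FPKM + 1) over the whole list was 3.11 and 3.09 in replicates 3 and 6 of day 14, inside the day 21 range of 2.77 to 3.37, whereas the other 4 day 14 muscles had 3.72 to 4.05.

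A few matrix genes did not overlap between the groups, which held for 103 of all genes tested (0.704%), 66 lower (0.451%) and 37 higher (0.253%). Col18a1, a basement membrane collagen, had 3.94 to 9.58 FPKM at day 14 (median 6.97) and 3.05, 3.19, 3.66, 2.60 and 3.75 at day 21. The lowest day 14 muscle was only just above the highest day 21 muscle. Tnc (tenascin-C) had 1.30 to 3.25 FPKM at day 14 and 0.377 to 1.18 at day 21. Both genes were chosen after their values were seen, for not overlapping, so their separation carries no test. In the other direction, Col24a1, a fibrillar collagen named by the study, had a difference of 0.45 (interval -0.06 to 0.96). Its day 21 values of 1.89, 1.53, 0.618, 0.917 and 5.04 FPKM overlapped those of day 14, 0.490 to 1.67. Without replicate 5 of day 21 the difference was 0.15.

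Enzymes that process the matrix had differences of the same sign. Of 27 proteases, inhibitors and collagen-modifying enzymes, 26 were lower at day 21, with a median of -0.37 and 9 at an unadjusted p under 0.05. That number was 4 without both replicate 5 libraries and 1 without replicate 4 of day 21, in which the matrix list was lowest. Plod2 (ENSMUSG00000032374, chromosome 9, 92542223 to 92608428), the lysyl hydroxylase that prepares collagen for the cross-links typical of fibrosis, had 1.89, 1.0, 0.901, 1.34, 2.04 and 1.16 FPKM at day 14 and 0.451, 0.627, 0.719, 0.457 and 0.316 at day 21. Its groups did not overlap, and the day 21 values overlapped the uninjured range of 0.377 to 0.733. The difference was -0.64 (interval -1.02 to -0.26, adjusted p = 0.757). Pcolce, which enhances the cleavage of procollagen, had -0.57. For Mmp14, a membrane metalloprotease, and Timp2, its inhibitor and partner, the intervals of -0.95 to 0.22 and -0.62 to 0.35 included 0.

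Fibroblast and fibro-adipogenic progenitor markers differed less than the matrix they make. Of the 17 tested, 14 were lower, with a median of -0.12 and 1 at an unadjusted p under 0.05. Mfap5, a microfibril protein, had -0.73. Pdgfra, the receptor that marks fibro-adipogenic progenitors, had 1.15 to 2.75 FPKM at day 14 and 1.03 to 1.42 at day 21, with an interval of -0.61 to 0.01. The matrix and progenitor lists were not tested against each other.

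**Figure D2:**
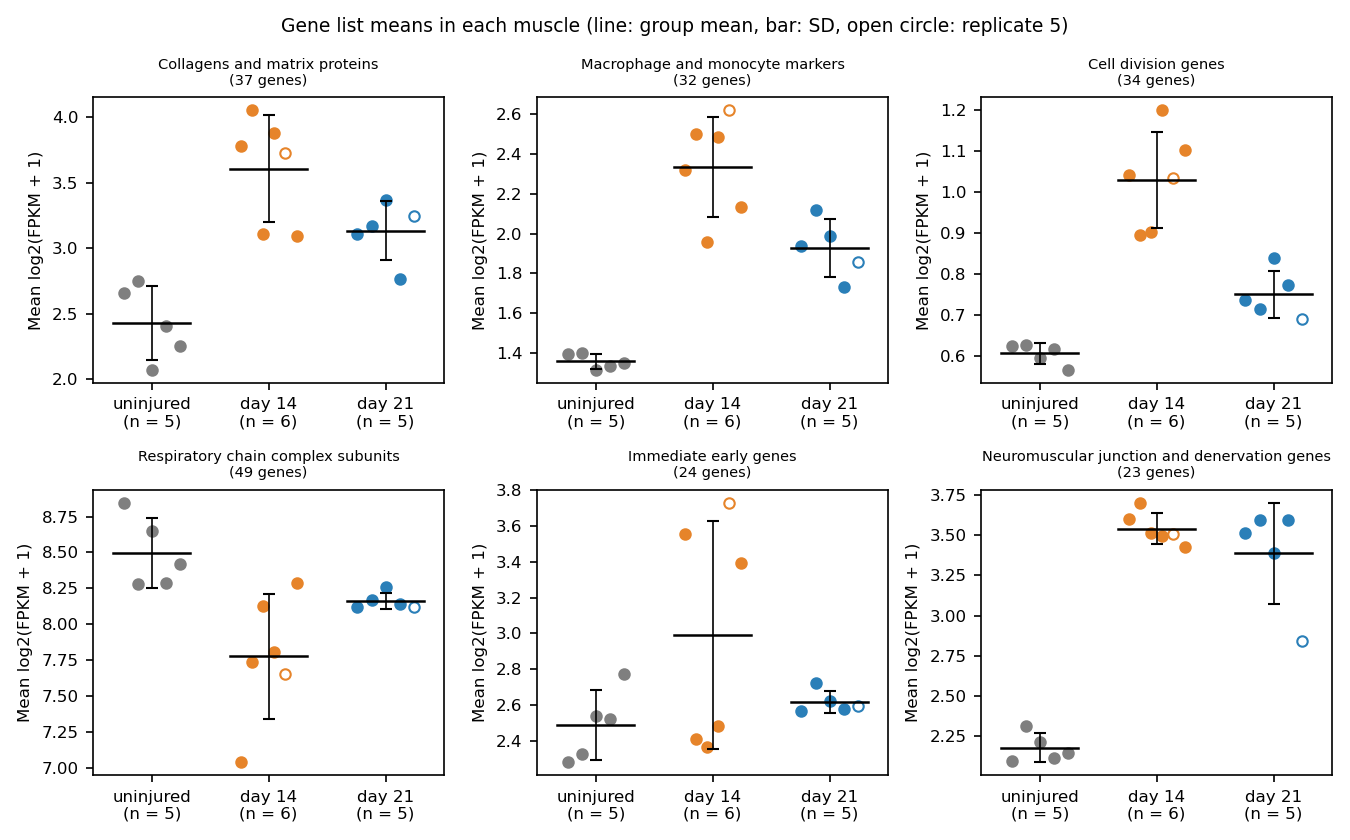
Mean log2(FPKM + 1) of 6 gene lists in each uninjured (n = 5), day 14 (n = 6) and day 21 (n = 5) muscle, with the group mean as a line and the SD as a bar; open circles are replicate 5 of day 14 and day 21. The day 21 cell division means of 0.69 to 0.84 lie below the day 14 means of 0.90 to 1.2, the day 14 immediate early means fall into a high and a low set, and replicate 5 of day 21 is low for neuromuscular junction genes, at 2.84.

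Cell division genes were lower at day 21 in 32 of 34 cases. Their median was -0.28, and 1 of them had an unadjusted p under 0.05, against 15 when only the day 14 and day 21 samples were fitted. In that smaller fit 626 of all genes tested were lower at that limit, against 455 in the fit of all groups. The mean of the cell division list was 0.90 to 1.2 in the day 14 muscles and 0.69 to 0.84 in the day 21 muscles, so the groups did not overlap. The uninjured muscles lay lower still at 0.57 to 0.63. Leaving out single libraries moved the median only between -0.31 and -0.23. These genes have low FPKM, and a pseudocount of 0.1 in place of 1 gave a median of -0.71. Mcm3, a subunit of the replicative helicase, was the member with the smallest p. It had 1.37 to 3.05 FPKM at day 14 and 0.932, 0.761, 1.21, 1.45 and 0.358 at day 21, with replicate 4 of day 21 reaching into the day 14 range, and a difference of -0.71 (interval -1.33 to -0.10). Cdk1, the mitotic kinase, had -0.61. The groups did not overlap for Top2a, topoisomerase II alpha, at 0.308 to 0.924 FPKM against 0.108 to 0.288, or for Racgap1, a cytokinesis regulator, at 0.395 to 0.629 against 0.0633 to 0.270, both chosen after their values were seen. Cks2 (ENSMUSG00000062248, chromosome 13, 51645232 to 51650660), a small subunit of cyclin-dependent kinases that was not on the list, was among the 10 genes lower at day 21 with the smallest p. Its FPKM was 2.47, 3.11, 4.70, 2.70, 7.5 and 5.03 at day 14 and 1.28, 0.326, 0.689, 1.92 and 0.647 at day 21, with 3 to 89 reads per library. The groups did not overlap, and the difference of -1.39 (interval -2.23 to -0.55, adjusted p = 0.757) was the most negative of those 10 genes.

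Every one of the 32 macrophage and monocyte markers had a negative difference, with a median of -0.36. None had an unadjusted p under 0.05 in the fit of all groups, whereas 13 did when only the day 14 and day 21 samples were fitted. Of all genes tested, 455 were lower at that limit in the fit of all groups and 626 in the smaller fit. Cd68, a lysosomal glycoprotein of macrophages, had 10.3, 12.5, 5.39, 11.7, 13.2 and 7.42 FPKM at day 14 and 4.62, 6.81, 4.46, 3.28 and 2.92 at day 21. Replicate 3 of day 14 was the only one to reach into the day 21 range, and the difference was -1.02 with a wide interval of -2.30 to 0.25. Ctsk, a collagen-degrading cathepsin, had -0.57 (-1.22 to 0.07). Against uninjured muscle the list median was 0.88 at day 14 and 0.48 at day 21, with 11 and 2 members called higher. The shares of all genes tested that were called higher were 9.02% and 1.74%.

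Spi1 and Sp1 are transcription factors that the study singled out from this time series with transcription factor-gene networks. For SP1 it also reported more protein by immunofluorescence at day 21 than in uninjured muscle. The RNA differences between day 14 and day 21 given here do not address that protein result. Spi1 (ENSMUSG00000002111, chromosome 2, 91082390 to 91115756), the myeloid master regulator PU.1, had 1.92, 2.31, 1.5, 1.76, 4.78 and 2.86 FPKM at day 14 and 1.43, 1.5, 1.73, 0.296 and 1.70 at day 21. Most day 21 values lay at the lower edge of the day 14 range, replicate 4 was far lower, and the interval of the difference was -1.52 to 0.34 (adjusted p = 0.78). The exact permutation test of Spi1 gave p = 0.026, which is not adjusted for the number of genes examined. Sp1, a ubiquitous factor, had 1.24 to 3.09 FPKM at day 14 and 1.62 to 2.67 at day 21, and its difference of -0.04 had an interval of -0.32 to 0.23.

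Other immune lists had negative medians as well. Of 30 chemokines, cytokines and receptors, 27 were lower at day 21 (median -0.26, 2 at an unadjusted p under 0.05). The smallest p belonged to Ccl8, a monocyte-attracting chemokine, which had 7.92, 8.87, 3.03, 16.3, 15.9 and 9.96 FPKM at day 14 and 4.06, 4.56, 4.32, 1.04 and 4.38 at day 21. Only replicate 3 of day 14 overlapped with day 21, and Ccl8 was still called higher than in uninjured muscle at day 21 (adjusted p = 0.018 in limma, against 0.00011 at day 14). Icam1, the leukocyte adhesion receptor, had -0.40. All 15 complement components and Fc receptors were lower, with a median of -0.38 and 2 at an unadjusted p under 0.05.

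C4b (ENSMUSG00000073418, chromosome 17, 34728380 to 34743882), complement component 4, had 4.05, 4.25, 2.51, 5.74, 4.97 and 2.46 FPKM at day 14 and 1.45, 2.0, 2.42, 1.69 and 0.771 at day 21. Its groups did not overlap, though replicate 6 of day 14 and replicate 3 of day 21 nearly met, and the difference was -0.90 (interval -1.46 to -0.33). C4b has a near-identical neighbour, so its reads may be divided between the copies. The 7 tested MHC class II genes, which present antigen to helper T cells, had medians against uninjured muscle of 1.61 at day 14, with 6 called higher, and 1.25 at day 21, with 4 called higher, where 9.02% and 1.74% of all genes were. Between the days 6 of them were lower, with a median of -0.36. H2-Ab1 had 23.9 to 64.7 FPKM at day 14 and 24.2 to 35.4 at day 21, and H2-Aa 21.6 to 52.9 and 21.4 to 30.2, so the day 21 muscles fell within or just below the day 14 spread.

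Interferon-response genes were lower in 20 of 22 cases, with a median of -0.26 and 3 at an unadjusted p under 0.05. Usp18, which dampens interferon signalling, had a difference of -0.67 and Oasl2, an antiviral gene, of -0.59. Few lymphocyte markers were expressed: 7 of 24 passed the filter on low values, with a median of -0.04. Of these, Gzma, granzyme A, had 0.590 to 1.97 FPKM at day 14 and 0 to 0.593 at day 21, and Cd79a, a B cell receptor component, had a difference of 0.45 (interval -0.01 to 0.91). Of the neutrophil and mast cell markers, 7 of 16 were tested with a median of -0.05, and both S100a8 and S100a9 had intervals that included 0. The medians of the lymphocyte and of the neutrophil and mast cell lists changed sign with quantile normalization, to 0.03 and 0.02.

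**Figure D3:**
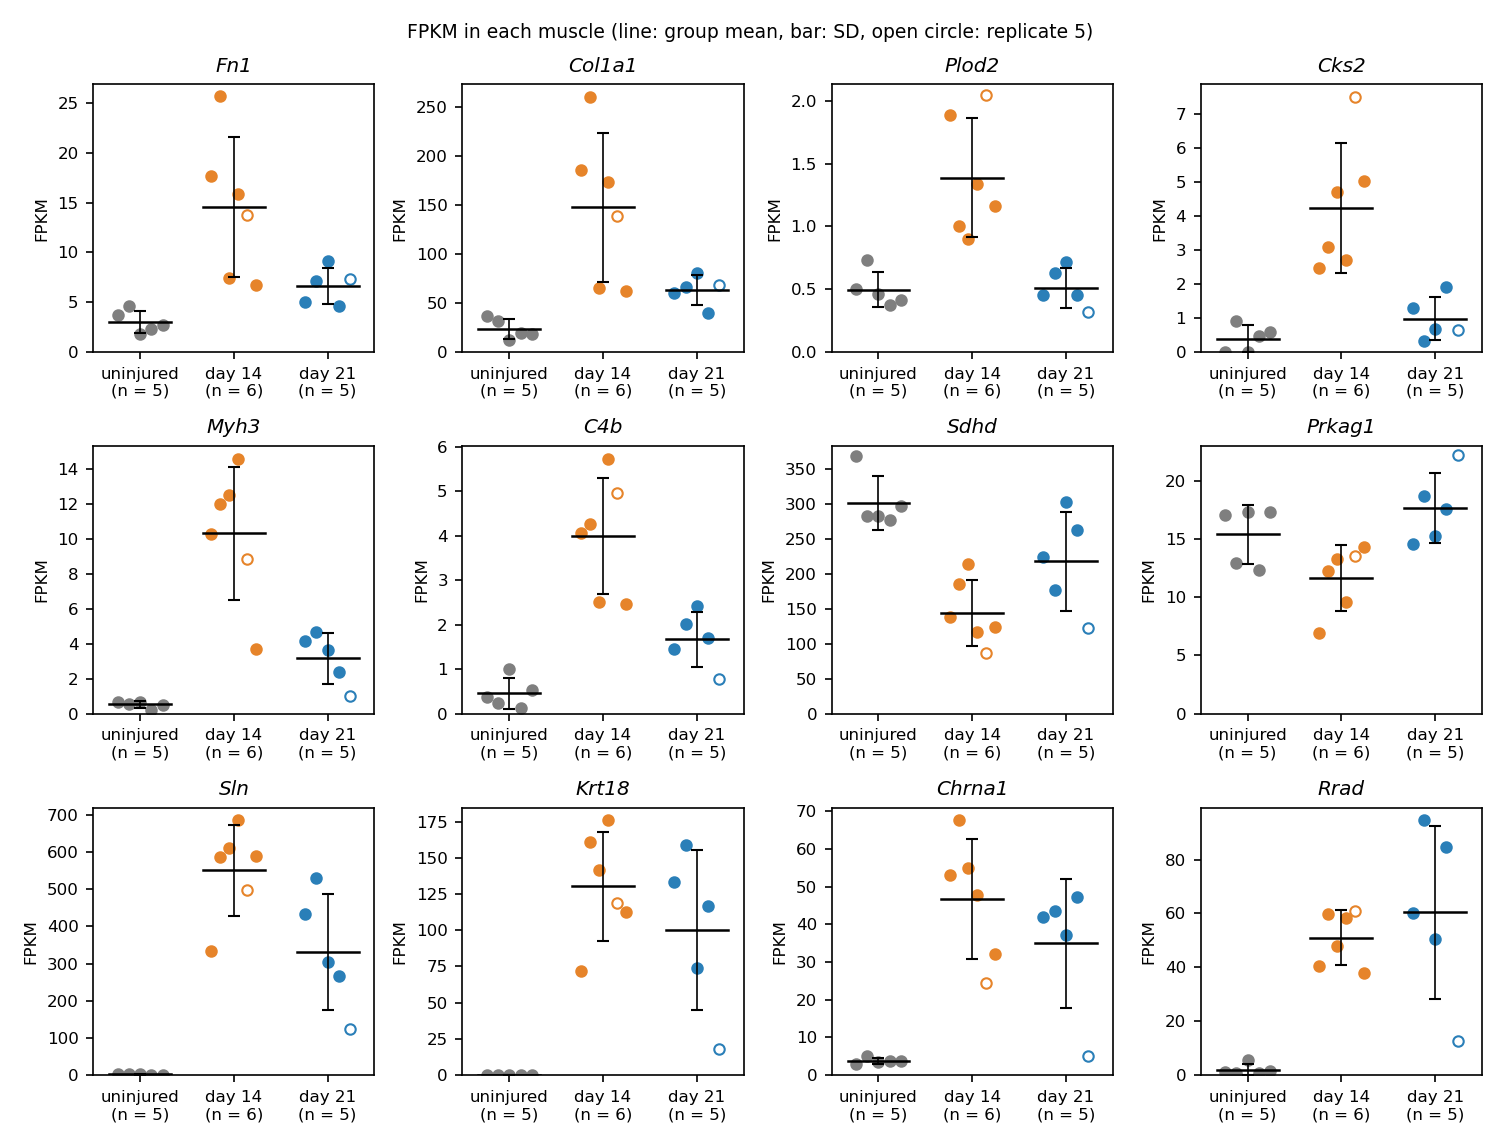
FPKM of 12 genes in each uninjured, day 14 and day 21 muscle, with the group mean as a line and the SD as a bar; open circles are replicate 5 of day 14 and day 21. The groups do not overlap for Plod2, Cks2, C4b and Prkag1, and replicate 5 of day 21 is the lowest injured muscle for Krt18 (18), Chrna1 (4.94), Sln (125) and Rrad (12.6).

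A list of 17 genes of developing and remodelling fibers had 14 lower at day 21. It holds embryonic, perinatal and other early sarcomere isoforms, slow-fiber troponins (Tnni1, Tnnc1), stretch-responsive and filament-associated genes (Ankrd1, Ankrd2, Csrp3, Xirp1, Xirp2), and Nes and Ncam1, an intermediate filament and an adhesion molecule of immature or denervated fibers. Their median was -0.33, with 1 at an unadjusted p under 0.05, and ranged from -0.42 to -0.18 as single libraries were left out. Myh3 (ENSMUSG00000020908, chromosome 11, 67078300 to 67102291), the embryonic myosin heavy chain of newly formed fibers, had 10.3, 12, 12.5, 14.6, 8.82 and 3.70 FPKM at day 14 and 4.13, 4.65, 3.63, 2.40 and 1.02 at day 21. Replicate 6 of day 14 was the only one in the day 21 range. The difference was -1.44 (interval -2.78 to -0.10, adjusted p = 0.757), and uninjured muscles had 0.228 to 0.669. Myh8, the perinatal myosin, had 3.13 to 16.3 FPKM at day 14 and 1.51 to 5.22 at day 21. At day 21 these genes still had a median of 1.19 above uninjured muscle, with 5 called higher, against 1.52 and 10 at day 14. Of all genes tested, 1.74% were called higher at day 21 and 9.02% at day 14.

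Muscle stem cell and myogenic factor genes had a median of -0.11, with 13 of 17 lower and none at an unadjusted p under 0.05. Myod1 (ENSMUSG00000009471, chromosome 7, 46376474 to 46379099), the myogenic determination factor, had 55.4 to 100.3 FPKM at day 14 (median 75.5) and 56.8, 63.0, 56.8, 54.9 and 28.4 at day 21. The 4 other day 21 muscles lay at the lower edge of the day 14 range, and replicate 5 of day 21 was lower than all of them. Its level was 1.99 log2 units above uninjured muscle at day 14 and 1.37 at day 21, both called. Cdkn1c, a cell cycle inhibitor of differentiating myoblasts, had a difference of -0.40 with an interval of -0.93 to 0.13.

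Adult sarcomere genes were higher at day 21 in 22 of 30 cases, with a median of 0.23 that turned to -0.02 with quantile normalization and -0.06 with TPM. None had an unadjusted p under 0.05. Mylk2, the skeletal muscle light chain kinase, had 93.6 to 239.8 FPKM at day 14 and 168 to 306 at day 21 (difference 0.57, interval -0.10 to 1.23). Myh1, the IIx myosin, pointed the other way, at -0.52 (-1.16 to 0.12), and Myh4, the IIb myosin, had 0.54 (-0.31 to 1.39).

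Neuromuscular junction and denervation genes had a median of 0.92 above uninjured muscle at day 14, with 12 of 23 called higher and 2 called lower, and of 0.69 at day 21, with 10 called higher and 0 lower. Of all genes tested, 9.02% and 1.74% were called higher on these days and 11.3% and 1.69% lower. Between the days the median was -0.18, with 15 lower and 8 higher, and it was -0.06 without replicate 5 of day 21. That library had a list mean of 2.84, against 3.39 to 3.60 in the other 4 day 21 muscles and 2.10 to 2.31 in uninjured muscles. Chrna1 (ENSMUSG00000027107, chromosome 2, 73563215 to 73580338), the alpha subunit of the acetylcholine receptor, illustrates this. It had 53.2, 67.8, 54.8, 47.9, 24.4 and 32.2 FPKM at day 14, and 42, 43.5, 37.1, 47.2 and 4.94 at day 21. Replicate 5 of day 21 was inside the uninjured range of 2.93 to 5.11, while the other day 21 muscles were inside the day 14 range, and the difference of -0.64 was -0.06 without that library. Chrnb1 and Chrnd, further receptor subunits, had intervals of -0.87 to 0.08 and -1.47 to 0.49. Musk, the receptor kinase that organizes the junction, had 1.15 to 3.51 FPKM at day 14 and 0.498 to 1.41 at day 21. In the opposite direction Ky, a protein of the sarcomere and junction, had a difference of 0.63 (-0.05 to 1.30).

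The study named several genes with strong expression after VML, chosen on these same samples. It picked Sln, Krt8, Krt18 and Rrad by also comparing them with a toxin injury dataset and a clinical dataset. By qPCR it reported Krt18, Sln and Chrna1 as higher at day 21 than in uninjured muscle. For sarcolipin, keratins and Rrad, the sustained expression at day 21 was called against uninjured muscle, and the differences from day 14 to day 21 had wide intervals, with replicate 5 of day 21 low. Krt18 (ENSMUSG00000023043, chromosome 15, 102028180 to 102032027), an epithelial-type keratin, had 71.8, 161, 142, 176, 119 and 112 FPKM at day 14 and 133, 159, 73.6, 116 and 18 at day 21, against 0.0565 to 0.297 in uninjured muscle. Apart from replicate 5, the day 21 muscles lay within the day 14 range, and the difference of -0.63 had an interval of -2.68 to 1.42 and was -0.11 without replicate 5. Krt8, its partner, had a difference of -0.79 (-2.52 to 0.93), and -0.30 without replicate 5. Sln, sarcolipin, which uncouples the calcium pump of the sarcoplasmic reticulum, had 334, 586, 611, 686, 497 and 590 FPKM at day 14 and 433, 531, 303, 265 and 125 at day 21, with 1.17 to 2.42 in uninjured muscle. Its day 21 values reached from the middle of the day 14 range to far below it, and the difference of -0.85 was -0.54 without replicate 5. Rrad, an RGK GTPase that inhibits calcium channels, had 38.0 to 60.8 FPKM at day 14 and 60.1, 94.6, 50.4, 84.6 and 12.6 at day 21. Replicate 5 was far below the day 14 range and 2 others well above it. Its difference was 0.001, and without that library it was 0.48.

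**Figure D4:**
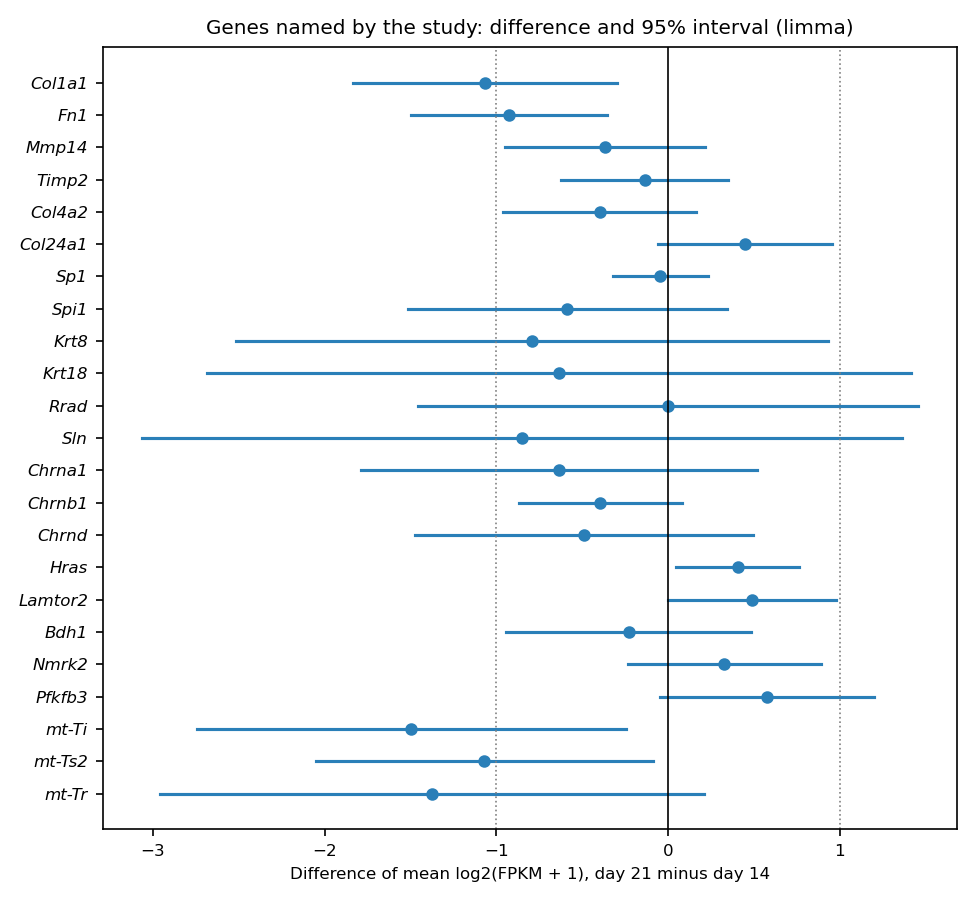
Difference of mean log2(FPKM + 1), day 21 minus day 14, with its 95% interval from limma for 23 genes that the study names; the solid line marks 0 and the dotted lines 1 unit in either direction. The interval excludes 0 without adjustment for Col1a1, Fn1, Hras, Lamtor2, mt-Ti and mt-Ts2, and those of Sln, Krt18 and Krt8 are the widest.

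Over the 26 tested muscle injury genes of the study that were kept as a list, 17 were lower and 9 higher at day 21, with a median of -0.25. The list mixes genes that the study reports as raised after VML with genes it reports as lowered. Its counts and median are therefore not read as a direction of the injury response. Against uninjured muscle, 9 were called higher and 6 lower at day 14, and 7 and 4 at day 21. Of all genes tested, 9.02% were called higher and 11.3% lower at day 14, and 1.74% and 1.69% at day 21. Hras, a signalling GTPase, and Lamtor2, a lysosomal scaffold of growth signalling, had differences between the days of 0.41 (0.05 to 0.76) and 0.49 (0.00 to 0.98). They were the 2 list members with an unadjusted p under 0.05 in the higher direction. In the lower direction it was Dbn1, the actin-binding protein drebrin, with 1.87 to 6.09 FPKM at day 14 and 1.79 to 2.94 at day 21 (-0.46, interval -0.92 to -0.003). Pfkfb3, which activates glycolysis, had 3.17 to 6.12 FPKM at day 14 and 7.85, 8.31, 3.68, 9.78 and 10.1 at day 21. Replicate 3 of day 21 fell inside the day 14 range and the others above it, all under the uninjured 15 to 36.1. Bdh1 (ketone body metabolism) and Nmrk2 (NAD synthesis) had intervals of -0.94 to 0.49 and -0.23 to 0.89. The mitochondrial tRNA genes mt-Ti, mt-Ts2 and mt-Tr had differences of -1.5, -1.07 and -1.37, but these short genes held few reads, from 0 to 30 per library for mt-Ti, and their exact permutation p values were 0.121, 0.0606 and 0.333.

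Nuclear genes of the respiratory chain had the highest list median. Of 49 subunits, 48 were higher at day 21, with a median of 0.37 and 3 at an unadjusted p under 0.05, where 3.1% of all genes were higher at that limit. That number ranged from 0, without replicate 4 of day 14, to 8, without replicate 3 of day 14. The list stayed above the median of all genes under every scaling, at 0.17 with quantile normalization, 0.17 with own totals and 0.09 with TPM. In the day 21 muscles the list mean was 8.12 to 8.26, a narrow range, whereas at day 14 it was 7.04, 7.74, 8.13, 7.81, 7.66 and 8.29. Replicates 3 and 6 of day 14, the libraries with low matrix expression, were inside or above the day 21 range, and replicate 1 was by far the lowest. Without replicate 1 the list median was 0.21. Relative to uninjured muscle it was -0.73 at day 14, with 19 of the 49 called lower, and -0.33 at day 21, with 0 called lower, where 11.3% and 1.69% of all genes were called lower.

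Sdhd (ENSMUSG00000000171, chromosome 9, 50596357 to 50603812), a membrane anchor of complex II, had the smallest p among them. It had 138, 185, 213, 116, 86.1 and 124 FPKM at day 14 and 223, 177, 302, 262 and 123 at day 21, against 276 to 368 in uninjured muscle. In each group replicate 5 was the lowest, and the difference was 0.59 (interval 0.08 to 1.10, adjusted p = 0.757). Ndufb8, a complex I subunit, had 35.6 to 92.6 FPKM at day 14 and 67.3 to 104 at day 21. The 13 protein genes of the mitochondrial genome had a median of 0.29, which was 0.03 without replicate 5 of day 21 and -0.06 with quantile normalization. Single genes spread widely: mt-Co3, a cytochrome oxidase subunit, had 255 to 1252 FPKM at day 14 and 392 to 1544 at day 21, and mt-Co2 339 to 1516 and 875 to 2532.

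Citric acid cycle and fatty acid oxidation genes had a median of 0.16, with 24 of 32 higher, which turned to -0.12 with TPM and -0.04 with own totals. Against uninjured muscle the median was -0.80 at day 14 and -0.63 at day 21, with 25 and 6 called lower. The shares of all genes tested that were called lower were 11.3% and 1.69%. Idh2, mitochondrial isocitrate dehydrogenase, was the 1 gene with an unadjusted p under 0.05. It had 28.8 to 35.9 FPKM at day 14 and 34.3, 42.3, 58.6, 58.0 and 32.5 at day 21, with 3 of the 5 day 21 muscles above the day 14 range. Pdk4, which blocks pyruvate entry into the cycle, had a difference of -0.39 (-0.93 to 0.15).

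Glycolysis and glycogen genes were higher in 24 of 29 cases, with a median of 0.37, and 0.08 with TPM. Ldha, the muscle lactate dehydrogenase, had 504, 700, 748, 450, 329 and 748 FPKM at day 14 and 971, 778, 887, 1244 and 622 at day 21. Only replicate 5 of day 21 reached into the day 14 range, and uninjured muscles had 1206 to 1434. The difference was 0.66 (interval 0.07 to 1.25, adjusted p = 0.757). Phkg1, the muscle phosphorylase kinase subunit (chosen after its values were seen), had 19.8 to 33.7 FPKM at day 14 and 34.3 to 57.1 at day 21, without overlap. Pgm1, a phosphoglucomutase, was the member lower at an unadjusted p under 0.05, with 1.64 to 6.24 FPKM against 0.915 to 2.11. Gapdh, chosen after its values were seen, ranged from 13.4 to 884 FPKM at day 14 and from 413 to 1006 at day 21. It has many processed copies in the mouse genome, so its level is uncertain here.

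Prkag1 (ENSMUSG00000067713, chromosome 15, 98812797 to 98831521), a regulatory subunit of the energy sensor AMPK, was the listed energy regulator with the smallest p. Its FPKM was 6.89, 12.3, 13.2, 9.56, 13.5 and 14.3 at day 14 and 14.6, 18.6, 15.2, 17.6 and 22.2 at day 21, so the groups did not overlap. The difference was 0.58 (interval 0.19 to 0.98, adjusted p = 0.757), and uninjured muscles had 12.3 to 17.3. Esrra, a nuclear receptor that drives mitochondrial genes, had 28.1 to 47.7 FPKM at day 14 and 41.6 to 56.9 at day 21 (0.45, interval 0.01 to 0.90). The list of 18 biogenesis regulators and AMPK subunits had a median of 0.09, with 13 higher, and -0.13 with TPM and -0.06 with own totals. Circadian clock genes had a median of 0.02, with 0 of 18 at an unadjusted p under 0.05, and Cry1, a repressor of the clock, had an interval of -0.70 to 0.09.

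Immediate early genes, which many stimuli induce rapidly, divided the day 14 muscles. Their list mean was 3.56, 3.73 and 3.40 in replicates 1, 5 and 6 and 2.41, 2.36 and 2.48 in replicates 2, 3 and 4, and it was 2.57 to 2.72 in all day 21 muscles, inside the uninjured range of 2.28 to 2.77. Of 24 genes, 22 were lower at day 21, with a median of -0.34 and 5 at an unadjusted p under 0.05, and with both replicate 5 libraries left out the median was -0.19 with 2 genes. Atf3, a stress-induced transcription factor, had 15.6, 4.37, 5.52, 4.13, 19.7 and 12.1 FPKM at day 14 and 2.59, 4.50, 4.43, 2.94 and 4.70 at day 21. The values that separate the groups are those of replicates 1, 5 and 6. Jun, an AP-1 subunit, differed more evenly, with 32.5 to 61.8 FPKM at day 14 and 24.7, 24, 43.9, 19.8 and 18.3 at day 21 (-0.75, interval -1.24 to -0.27). Hspa1a, the inducible HSP70, followed the same division, with 3.81, 4.44 and 4.23 FPKM in replicates 1, 5 and 6 of day 14 and 0.863 to 1.79 in the other 3, against 0.439 to 1.59 at day 21. Hspa1b is its near-identical copy, so the reads of the pair may be shared. Over 19 heat shock genes and chaperones the median was -0.17, with 4 lower at an unadjusted p under 0.05. The part of this division of the day 14 muscles in other differences was not tested.

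Growth factor genes were lower in 22 of 26 cases, with a median of -0.29. Tgfbr2, the type II receptor of the fibrogenic cytokine TGF-beta, had 8.12, 5.45, 4.82, 5.88, 5.88 and 3.54 FPKM at day 14 and 3.58, 3.57, 3.93, 3.37 and 2.14 at day 21. Replicate 6 of day 14 was inside the day 21 range and the others above it (-0.60, interval -1.04 to -0.16, adjusted p = 0.757). Apln, the ligand of the apelin receptor, belongs to the endothelial, pericyte and smooth muscle list described below. It had a difference of -0.74 (-1.48 to 0.01). H19, an imprinted non-coding RNA abundant in growing muscle and chosen after its values were seen, had 775 to 1212 FPKM at day 14 and 612, 605, 754, 541 and 261 at day 21, without overlap.

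For the remaining cell types and gene lists the medians were as follows. The endothelial, pericyte and smooth muscle list had -0.01 and adipocyte genes -0.10. Schwann cell and nerve genes had 0.06 and tendon markers -0.03, both of which changed sign under other scalings, with the tendon list mean varying from 1.77 to 3.53 between muscles. Erythroid markers had -0.27 over 5 tested genes, and 2 of 12 skin markers were expressed. Atrophy and protein degradation genes had a median of 0.01, and integrated stress response, serine and polyamine genes 0.02, among them Atf5 with a difference of 0.44 and Asns with -0.55. Cytosolic ribosomal protein genes had 0.13, which was -0.05 without replicate 1 of day 14, whose ribosomal list mean of 6.64 was the lowest of all, and negative with quantile normalization, TPM and own totals. Rplp2 was the ribosomal gene with the smallest p, at 0.45 (-0.01 to 0.90).

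Across all genes, the smallest p belonged to March9 and Wdr53. March9 (ENSMUSG00000040502, chromosome 10, 127055011 to 127060184), a membrane-bound ubiquitin ligase, had 1.18, 1.97, 1.51, 1.33, 1.46 and 1.65 FPKM at day 14 and 1.11, 0.841, 0.668, 0.351 and 0.265 at day 21. Its groups did not overlap, and the difference was -0.63 (interval -0.91 to -0.35, adjusted p = 0.673). Wdr53 (ENSMUSG00000022787, chromosome 16, 32247227 to 32257083), a WD repeat protein, had 2.98, 3.55, 4.06, 5.54, 3.60 and 3.62 FPKM at day 14 and 5.99, 6.21, 5.48, 8.56 and 7.00 at day 21, nearly without overlap, and a difference of 0.65 (interval 0.36 to 0.94, adjusted p = 0.673). Next among the genes higher at day 21 came Diablo, a mitochondrial activator of apoptosis (0.54), Alkbh2, a DNA repair dioxygenase (0.75), Usf1, a transcription factor (0.48), and Mageh1 (0.66). They were followed by Mir145a, Taf13 (0.50), the ornithine carrier Slc25a15 (0.47), Zfp395 (0.39) and the RNA methyltransferase subunit Mettl14 (0.31). Mir145a had the largest difference, 2.34, but is 70 bases long, held at most 27 reads in a library and was at 0 in 5 of the 6 day 14 muscles.

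The corresponding genes lower at day 21 were Ctxn1 (-0.94), Ext1, a heparan sulfate polymerase (-0.40), Tmsb15b1 (-1.08), Banp (-0.44), Otog (-0.66), Ccdc93 (-0.44), the autophagy protein Vmp1 (-0.47), Cks2 and the arylsulfatase Arsi (-0.62). Ctxn1, Ext1, Ccdc93 and Arsi did not overlap between the groups. Ext1 had 1.81, 2.09, 1.54, 2.06, 2.19 and 1.46 FPKM at day 14 and 1.02, 1.23, 1.37, 0.840 and 1.38 at day 21, inside the uninjured range of 0.802 to 1.54 at day 21. All of these genes had adjusted p values of 0.673 to 0.757.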

How the data were processed

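RNA of tibialis anterior muscle was sequenced after poly-T selection with non-directional libraries, so reads of a gene and of an antisense partner cannot be told apart. Groups and replicate numbers were read from the sample titles. The authors aligned the reads with HISAT2 2.0.5 and counted them per gene with featureCounts 1.5.0-p3, per the submitters' processing notes, and deposited FPKM for 54532 genes. How the denominator of the deposited FPKM was set is not given in the sources used here. FPKM times gene length gave whole reads for 100% of the values above 0, within 0.05 of a read, which yielded the depths. All value columns could be assigned to a sample. The 27 symbols stored as dates were restored from their gene identifiers, and 98.3% of the 54409 genes found in GENCODE M21 had the same GRCm38 coordinates.

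The fit used log2(FPKM + 1) of the 14630 genes that reached 0.5 FPKM in 5 or more samples. All 27 samples of 5 groups entered one fit in limma 3.58.1 (R 4.3.3) with a variance trend, two-sided tests and Benjamini-Hochberg adjustment at 0.05. A fold change on this scale understates the change of low genes. Exact permutation tests used all divisions of 5 against 6 samples, with a smallest possible p of 0.00433. The procedure was tested on simulated data. Tables and figures used Python 3.11.15, pandas 2.3.3, numpy 2.4.6 and matplotlib 3.10.9.

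The comparison and the 34 gene lists were chosen with earlier results of these data known. With fewer than 5 genes called, the genes named are the 10 with the smallest p in each direction among annotated genes with a mean FPKM of at least 1, the 2 with the smallest p in each list, genes named by the study where a result turns on them, and muscle markers. Others are marked as chosen after their values were seen. Of the genes this rule names, 2 are not reported here. In 22 further fits the pseudocount, filter, normalization, variance trend, samples in the fit or replicate block was changed or 1 library left out, and 5 more (own totals, voom, quality weights, and 2 fits without both replicate 5 libraries) were added after seeing the data.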

Additional observations from a re-analysis of the deposited data

Results flagged for a closer look

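Within the day 14 and the day 21 groups, 68 sets of list means and 210 sets of gene values were examined for a single muscle far from the rest of its group by Dixon's criterion, and 21 were found. Chance gives about 1 in 20 for a single set. These sets share genes, and many genes were named for a small p or after their values were seen. The number found is therefore not compared with that rate. Replicate 5 of day 21 accounted for 9 of the 21. It was lowest for the neuromuscular junction list (2.84), Racgap1 (0.0633 FPKM), Myod1 (28.4), Chrna1 (4.94), Chrnd (3.43) and Tgfbr2 (2.14), and highest for the endothelial, pericyte and smooth muscle list (4.11), Mageh1 (8.51) and Gapdh (1006).

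Replicate 4 of day 21 was highest for Banp (1.30 FPKM) and lowest for Otog (0.0257), Spi1 (0.296) and Ccl8 (1.04). Replicate 3 of day 21 was lowest for Cdkn1c (15.1) and Pfkfb3 (3.68). At day 14, replicate 1 was lowest for the ribosomal protein list (6.64) and Tmsb15b1 (0.410) and highest for Mir145a (10.3) and Idh2 (35.9), and replicate 2 was highest for Tnc (3.25) and lowest for Gapdh (13.4).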

How the results depend on the processing

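The count of 0 genes called between day 21 and day 14 was the same under all 27 alternatives, in which the lowest adjusted p ranged down to 0.0730, without replicate 6 of day 14. Counts at an unadjusted p under 0.05 moved more. Genes lower at day 21, 455 in the fit reported, were 957 with no filter on low values (31179 genes tested), 747 with TPM, 779 with own totals of reads and 721 with sample quality weights. Genes higher, 454, were 70 with TPM, 116 with own totals and 694 with quality weights. Leaving out 1 library at a time gave 310 to 646 higher and 270 to 603 lower, the fewest lower without replicate 4 of day 21. With both replicate 5 libraries left out there were 354 higher and 322 lower. The sign of the difference changed for Acta1 with quantile normalization (-0.00815) and for Ttn with quantile normalization (-0.034), TPM (-0.17) and own totals (-0.10). For Sp1 it ranged from -0.14 to 0.031 as single libraries were left out. For Rrad, near 0 in the fit reported, it was -0.00775 and -0.00368 with pseudocounts of 0.1 and 0.5, -0.15 with quantile normalization, -0.28 with TPM, -0.20 with own totals, -0.015 with voom, and -0.225 to 0.48 with single libraries left out. The cause of these changes was not tested.

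Replicate numbers are shared between the groups, but the labels give no litter, batch or day for them. The sample descriptions also carry letters, which disagree with the numbers at day 21, where replicate 4 has the letter of day 14 replicate 6. The correlations of deviations from the group means were 0.061, -0.022, 0.220, -0.122 and 0.378 for samples of the same number, and 0.0967 for the pair that shares a letter but not a number. As 3 of the 5 same-number values were under 0.1, and 3 of the 5 same-letter values, neither was treated as a pairing, although the value of the replicate 5 pair was the highest of all 30 between the groups. With the replicate block by number, 0 genes were called, 873 higher and 740 lower had an unadjusted p under 0.05, and the difference of Rrad was -0.34. With the replicate block by letter, 0 were called, with 448 higher and 433 lower.

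Depth limits the low genes: those with under 1 FPKM rest on few reads, and the pseudocount shrinks their differences. With 5 and 6 samples, the unadjusted 95% interval had a median half-width of 0.37, so smaller differences could not be resolved for many genes. This is not the limit of the adjusted test, which also called none of the 62 genes that differed by more than 1 unit.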
